A study of Rattus norvegicus with 40 samples.

Results

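Tissue factor (F3), its inhibitor (Tfpi) and the thrombin receptor (F2r) were followed in rat carotid arteries after balloon injury. They were taken as every probe set whose platform annotation gives exactly that gene symbol. This gave 3 of the 8799 probe sets in the table, 1 per gene: U07619_at for F3, D10926_s_at for Tfpi and M81642_at for F2r. The suffix _s_at marks a set whose probes can match several similar transcripts.

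Tissue factor is a transmembrane protein that binds circulating factor VIIa and so starts blood clotting. In the vessel wall it lies mainly in the adventitia, out of contact with blood, and smooth muscle cells and monocytes can make it after injury. Tfpi encodes tissue factor pathway inhibitor, a Kunitz-type protein made by endothelium and other vascular cells, which blocks factor Xa and then the tissue factor and factor VIIa complex. F2r encodes PAR1, a G protein-coupled receptor that thrombin switches on by cutting its outer end, and smooth muscle cells carry it.

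All rats were male Wistar-Kyoto animals aged 3 months. In 8 groups of 3 arrays, a balloon catheter had injured the left common carotid artery, whose outer side then received plain Pluronic gel or gel holding recombinant tPA (tissue-type plasminogen activator, a protease that makes plasmin) at 20 nmol/kg. The injured left and the uninjured right artery of such rats were taken on day 1 or day 4, giving left gel, left tPA, right gel and right tPA groups for each day. Sham-operated rats contributed 4 arrays of day 1 and 6 of day 4, and intact rats 6, all of the left artery, which makes 40 arrays in 11 groups. Each array held the pooled RNA of 3 vessels, so an array is not an animal, and the labels do not say whether same-numbered left and right arrays shared rats.

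The windows of 250 bases before the RefSeq transcription starts (build GRCr8) show how unlike the starts of Tfpi and F2r are, and F3 is not shown. RefSeq's table listed 2 starts for Tfpi, which changed most, and 1 for F2r, which changed least. Each runs 5′ to 3′ on the minus strand, with matches to the motifs below in capitals.
F2r, chr2:28620580-28620829: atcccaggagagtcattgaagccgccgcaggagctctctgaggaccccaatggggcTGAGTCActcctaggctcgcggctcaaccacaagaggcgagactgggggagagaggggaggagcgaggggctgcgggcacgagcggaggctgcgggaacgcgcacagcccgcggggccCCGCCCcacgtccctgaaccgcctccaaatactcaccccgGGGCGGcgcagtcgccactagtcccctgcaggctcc
Tfpi, downstream start, chr3:89980725-89980974: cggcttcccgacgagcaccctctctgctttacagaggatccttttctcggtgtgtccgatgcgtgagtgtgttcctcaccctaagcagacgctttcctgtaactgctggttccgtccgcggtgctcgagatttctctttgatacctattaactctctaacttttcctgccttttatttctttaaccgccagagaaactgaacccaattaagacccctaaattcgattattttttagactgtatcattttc
Tfpi, upstream start, chr3:89983544-89983793: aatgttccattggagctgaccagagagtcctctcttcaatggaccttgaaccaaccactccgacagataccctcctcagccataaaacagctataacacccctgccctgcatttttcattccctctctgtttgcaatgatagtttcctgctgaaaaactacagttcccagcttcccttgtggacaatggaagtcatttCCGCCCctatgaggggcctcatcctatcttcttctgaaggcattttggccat

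The F2r window was 69.6% G and C with 21 CpG pairs, and 91.3% of the 33469 windows of that length had less. The Tfpi windows held 45.6% with 13 CpG pairs and 47.6% with 2, below the median of 51.2%. Motifs were searched on both strands, and no matches overlapped. GGGCGG, the Sp1 core, was found at 2 places for F2r and 1 for the upstream Tfpi start, and 30.5% of all windows hold it. TGANTCA, the AP-1 core, occurred once for F2r and stands in 6.34% of windows. TATAAA (12.9% of windows), the NF-kappaB motif (1.3%), GCGNGGGCG for Egr1 (4.29%) and CANNTG, the E-box (65.5%), matched none of these 3 windows. A match is a match of letters only.

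Values are linear intensities per probe set, relative to the rest of each array, and differences are log2 of the first group over the second. Tests are those of limma, fitted over 5827 probe sets with Benjamini-Hochberg adjustment, and a result passed at an adjusted p under 0.05. Precision is limited by how many arrays each group has. All 3 genes passed the filter on dim probe sets. F2r was the brightest (1679.1 to 5073.7 over the 40 arrays), F3 ran from 200.5 to 2756.9, and Tfpi from 5.1 to 616.1. The mean of Tfpi stood at the 47.6 percentile of all probe sets, and 1 of its values, sham day 4 replicate 2, was below the floor of 23.3 to which values were raised.

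Of the tPA arrays 4 stood apart from their groups, namely those labelled replicate 2 of day 1 and replicate 1 of day 4, in left and in right arteries alike. They did so on an injury index, a mean in log2 units over 913 probe sets that were higher with injury and 664 that were lower (left gel against sham, chosen on gel, sham and intact arrays, with F3, Tfpi and F2r left out). The index ran from 0.407 to 0.915 in left gel arrays and from -0.594 to 0.125 in sham, intact and right gel arrays. It was -0.06 and -0.306 in the left tPA arrays named, and 0.574 and 0.59 in the right tPA arrays named. Whether left and right labels were exchanged for these arrays was not tested, and an exchange would change what every left tPA and right tPA value below stands for. Values are given with all arrays under their labels, and without these 4 where that matters, a choice that rests on the outcome and was made after seeing the data. Over the 23 comparisons of 2 groups between 0% and 19.5% of probe sets passed.

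Smooth muscle markers were bright, summing to between 14230 and 39724 intensity units over 6 genes on every array. Endothelial markers were dim beside them, at 572 to 2460 over 6 genes, and whether they show endothelium on every array was not tested. In left gel arteries of day 1 they summed to 572 to 771, with the mean of 1 gene below the floor. Vwf, a defining endothelial marker, and Sele were below the filter, and other genes of the list were not on the array.

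F3 was already low on day 1 in injured arteries under gel, compared with sham. On day 1 the left gel arrays read 268.6, 412.6 and 245.2, and the sham arrays 1390.5, 1666.7, 1775.3 and 1475.6. Every injured array lay below every sham array. In log2 intensity the sham mean was 10.62 ± 0.16 (SD, n = 4) and the left gel mean 8.23 ± 0.40 (SD, n = 3), a 5.22-fold fall (95% interval 2.29 to 11.9; limma adjusted p = 0.015). F3 was the only one of the 3 genes to pass on day 1, where 3.42% of all probe sets passed. The call rested on each of the 2 left gel arrays most alike: limma's adjusted p was 0.0704 without replicate 1, 0.0842 without replicate 3 and 0.0782 with both averaged. The same left gel arrays carried more skeletal muscle RNA, with 9 markers summing to 19918 to 34596 against 3312 to 4650 in sham, and its part in the result was not tested. In whole vessels, fewer cells of a type and less RNA per cell cannot be told apart.

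On day 4 F3 was still low under gel. The left gel arrays read 383.6, 421.5 and 269.3, and the sham arrays had a lowest value of 598.1, a median of 1498.7 and a highest of 1781.9. The groups did not overlap, although sham replicate 2 (598.1) came near. The fall was 3.64-fold (95% interval 1.7 to 7.8; limma adjusted p = 0.0128), with 19.5% of all probe sets passing, and without left gel replicate 3 its adjusted p was 0.0727. On day 4 the actin 3'/5' ratio, a measure of RNA quality, ran from 7.38 to 8.09 in left gel arrays. It ran from 11.8 to 23.7 in sham and from 11.7 to 13.6 in right gel arrays, and its part was not tested. The injury effect of day 4 minus that of day 1 was 0.52 (SE 0.80, limma adjusted p = 0.888), so no difference between the days was shown.

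In the uninjured right artery of the gel-treated rats no difference of F3 from sham passed (0.26, 95% interval -0.93 to 1.45 on day 1, and 0.25, 95% interval -0.85 to 1.35 on day 4). It read 1694.3, 1582.5 and 2476.4 on day 1 and 2375.4, 1012.9 and 1456.7 on day 4. All 6 of these values exceeded all 6 of the left gel arteries. Left was below right by 6.25-fold on day 1 (95% interval 2.59 to 15.1; limma adjusted p = 0.0403) and 4.32-fold on day 4 (95% interval 1.79 to 10.4; limma adjusted p = 0.0398), against 0.91% and 5.56% of probe sets passing. Both calls were fragile. On day 1 the adjusted p was 0.137 and 0.0816 without right gel replicates 1 and 3, and 0.197 and 0.144 without left gel replicates 1 and 3. On day 4 it lay between 0.0519 and 0.157 with any 1 of the 6 arrays left out. On day 1 the GAPDH 3'/5' ratio, a measure of RNA quality, ran from 6.47 to 9.04 in left and 3.25 to 5.61 in right gel arrays, and right gel replicate 3 had 6.54% of probe sets at the floor against 15.5% or more on all other arrays. Their part in the result was not tested.

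**Figure D1:**
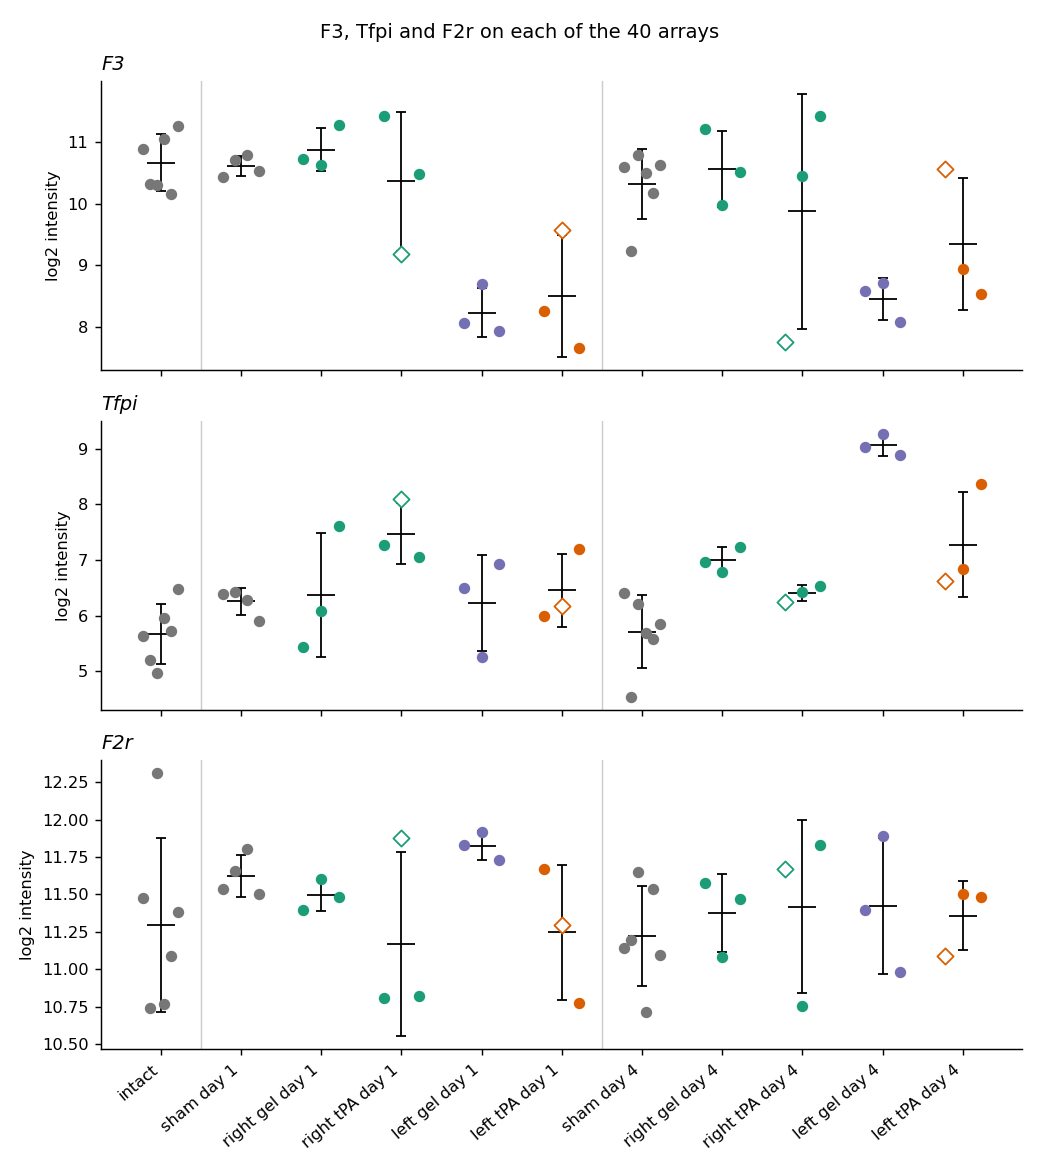
Log2 intensity (vertical axes) of F3, Tfpi and F2r on each array, by group. Points are arrays, bars are means ± SD, open diamonds are the 4 tPA arrays that stood apart, and vertical lines part intact, day 1 and day 4 groups. F3 lies low in both left gel groups (8.23 and 8.46), Tfpi stands highest in left gel arteries of day 4 (9.06), and the means of F2r span 0.66 units.

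Under tPA the injured arteries were spread widely in F3. Left tPA arrays read 305.8, 765.6 and 200.5 on day 1 and 1509.5, 490.0 and 372.2 on day 4. The highest value of each day, 765.6 and 1509.5, came from an array that stood apart. Day 1 lay below sham by 4.35-fold (95% interval 1.91 to 9.92; limma adjusted p = 0.0316), with 4.69% of probe sets passing. Day 4 had a difference from sham of -0.98 (SE 0.54, limma adjusted p = 0.297). The day 1 call ended without sham replicates 1, 2 or 3 (adjusted p = 0.0522, 0.0752 and 0.0754) or left tPA replicates 1 or 3 (0.0963 and 0.175). RNA quality differed too. Left tPA replicates 1 and 3 of day 1, low in F3, had actin 3'/5' ratios of 9.10 and 2.80 and GAPDH ratios of 2.18 and 0.243, replicate 2 had 17.8 and 11.4, and sham arrays ran from 16.3 to 21.1 and from 7.53 to 10.3. Their part in the result was not tested.

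Without the 4 arrays, 2 left tPA arrays remained on each day, and the falls of both days passed. F3 then differed from sham by -2.66 on day 1 (limma adjusted p = 2.92e-05, with 12.2% of probe sets passing) and by -1.58 on day 4 (limma adjusted p = 0.00409, with 18.3% passing). In left gel arteries the differences from sham stayed as they were, while their limma adjusted p fell to 4.49e-05 and 8.24e-05, since the shared spread of F3 shrank (SE 0.36 in place of 0.58 on day 1). In that fit 8.15% and 22.9% of probe sets passed.

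Right arteries of tPA-treated rats were spread as widely. They read 2755.7, 578.1 and 1437.8 on day 1 and 215.4, 1394.0 and 2756.9 on day 4, the lowest of each day again being an array that stood apart. With all arrays, left tPA differed from right tPA by -1.87 on day 1 and -0.53 on day 4 (limma adjusted p = 0.233 and 0.879, with 0.0172% and 0.0515% of probe sets passing). Without the 4 arrays these differences, each of 2 arrays against 2, were -3.01 and -2.20 (limma adjusted p = 8.21e-05 and 0.00396, with 6.13% and 5.18% passing). Their p-values rest largely on the spread within the other groups. The 2 left tPA arrays kept on day 1 are those with actin 3'/5' ratios of 9.10 and 2.80. The actin and GAPDH 3'/5' ratios of right tPA day 4 replicate 1 were 4.95 and 0.333, the lowest of its group, and their part was not tested.

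No difference of F3 between tPA and gel in the injured artery was detected. Left tPA minus left gel was 0.26 on day 1 (95% interval -1.01 to 1.53; limma adjusted p = 0.888) and 0.89 on day 4 (95% interval -0.38 to 2.16; limma adjusted p = 0.817). Without the 4 arrays the values were -0.28 and 0.28. The tPA effect of day 4 minus that of day 1 was 0.62 (SE 0.88, limma adjusted p = 0.817, with 0.0858% of probe sets passing). In the comparisons of left tPA with left gel 0.137% and 0.103% of all probe sets passed, and 0 of the 3 genes did.

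**Figure D2:**
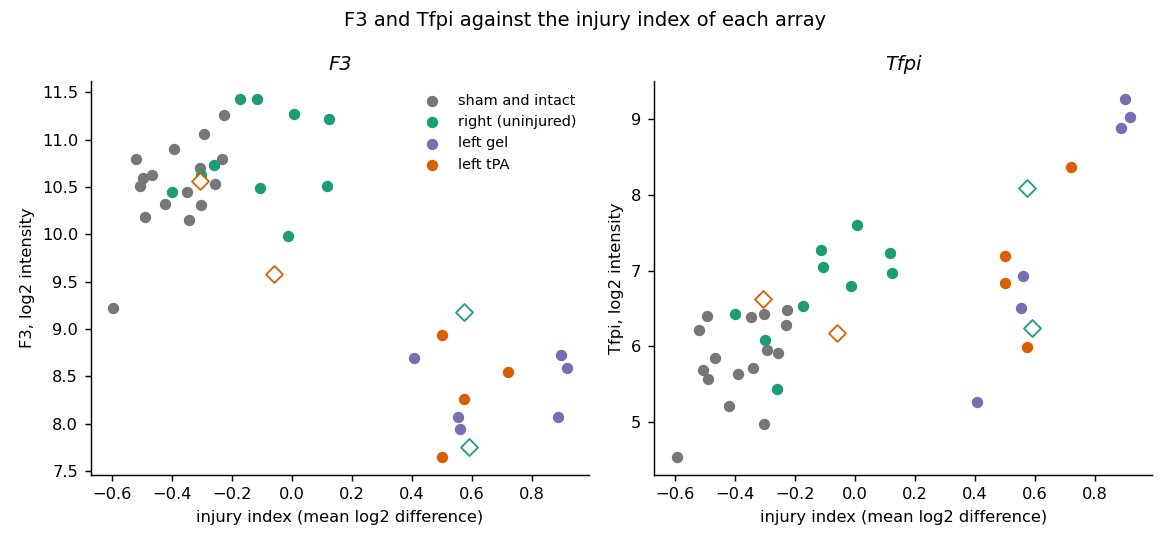
Log2 intensity of F3 and Tfpi (vertical axes) against the injury index of each array (horizontal axis, in log2 units), which was built without either gene. Points are arrays coloured by artery, and open diamonds are the 4 tPA arrays that stood apart. The 2 right tPA diamonds lie at indices of 0.574 and 0.59 with F3 at 578.1 and 215.4 intensity units, and the 2 left tPA diamonds at -0.06 and -0.306 with F3 at 765.6 and 1509.5.

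In intact arteries F3 had a lowest value of 1135.9, a median of 1590.8 and a highest of 2455.4. The log2 means fell in the order right gel day 1 (10.88), intact (10.67), sham day 1 (10.62), right gel day 4 (10.57), right tPA day 1 (10.36), sham day 4 (10.32), right tPA day 4 (9.87), left tPA day 4 (9.35), left tPA day 1 (8.49), left gel day 4 (8.46) and left gel day 1 (8.23). No step between neighbours in this order exceeded the larger SD of the neighbouring groups. Of 23 comparisons of 2 groups F3 passed in 5, all with the injured group lower. Among the comparisons that hold no left artery of ballooned rats the lowest adjusted p was 0.736.

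Tfpi rose in the injured artery on day 4, while on day 1 no difference passed. On day 1 left gel arrays read 90.6, 38.4 and 122.0, within reach of the sham arrays (84.0, 86.1, 78.1 and 60.1). The difference was -0.02 (95% interval -0.96 to 0.92; limma adjusted p = 0.992). Left tPA arrays of day 1 read 63.4, 72.5 and 147.0, also overlapping sham.

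On day 4 the left gel arrays read 523.1, 616.1 and 473.8. The sham arrays of that day had a lowest value of 5.1, a median of 54.65 and a highest of 84.7. All injured arrays lay far above all sham arrays. Log2 means were 9.06 ± 0.19 (SD, n = 3) with injury and 5.71 ± 0.65 (SD, n = 6) in sham, so that the rise was 10.2-fold (95% interval 5.58 to 18.6; limma adjusted p = 4.86e-06). With any 1 array left out the adjusted p was at most 0.00014. With the floor at the 40th percentile, which raises the sham values, the difference was 2.74 in place of 3.35 (limma adjusted p = 1.27e-07). The actin 3'/5' ratio differed too, at 7.38 to 8.09 in left gel and 11.8 to 23.7 in sham arrays. Monocyte and macrophage markers were higher as well, as given further on, and the part of either was not tested.

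The injury effect on Tfpi differed between the days. Day 4 minus day 1 gave 3.37 (SE 0.63, limma adjusted p = 0.00181, with 2.49% of probe sets passing), and 2.52 with the higher floor or 2.76 with array weights, both passing. Within left gel arteries, day 4 exceeded day 1 by 7.11-fold (95% interval 3.55 to 14.3; limma adjusted p = 0.000884, with 3.38% passing).

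The right gel artery of day 4 lay between injured and sham. It read 125.4, 110.8 and 151.0, above every sham array and below every left gel array. Left exceeded right by 4.18-fold (95% interval 2.08 to 8.37; limma adjusted p = 0.0104). Markers of nerve and Schwann cells fell in the same comparison (3 of 8, median -2.68), where 5.56% of all probe sets passed. Their sums were 5060 to 7994 in left and 10231 to 21601 in right arrays. Against sham, 6 of 8 nerve markers rose and 1 fell in the right gel artery. There 3 of 4 adipocyte markers rose, and 9.3% of all probe sets passed. The part of either tissue was not tested. Right exceeded sham by 1.29 (SE 0.43) with a limma adjusted p = 0.0521, which did not pass, where 9.3% of probe sets did. That p was 0.037 and 0.0473 without sham replicates 1 and 3, and 0.0426 without the 4 tPA arrays, where 13.3% passed. On day 1 left minus right was -0.14 (SE 0.49, limma adjusted p = 0.915), with right gel arrays at 43.3, 68.1 and 194.3.

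Left tPA arteries of day 4 held less Tfpi than left gel arteries, but the difference did not pass. They read 98.8, 114.3 and 329.9, all below the left gel values of 473.8 to 616.1. The difference was -1.79 (95% interval -2.79 to -0.78; limma adjusted p = 0.158). It passed with the floor at the 40th percentile (adjusted p = 0.0104), with array weights (0.000502) and without left tPA replicate 3 (0.0383). Without the 4 arrays that stood apart it was -1.46 (limma adjusted p = 0.37, with 0.36% of probe sets passing). On day 1 the difference was 0.22 (SE 0.49, limma adjusted p = 0.879), and the tPA effect of day 4 minus that of day 1 was -2.01 (SE 0.70, limma adjusted p = 0.197).

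Against sham, left tPA arteries had more Tfpi on day 4, by 2.96-fold (95% interval 1.62 to 5.4; limma adjusted p = 0.0262), with 6.02% of probe sets passing. All 3 arrays, those at 98.8 and 114.3 included, lay above the highest sham array. The call ended without sham replicate 2 (adjusted p = 0.0606), left tPA replicate 2 (0.0763) or left tPA replicate 3 (0.356). Without the 4 arrays that stood apart, with 2 left tPA arrays remaining, the difference was 1.89 (limma adjusted p = 0.00741, with 18.3% of probe sets passing). With the floor at the 40th percentile the difference was 0.95 in place of 1.56 and passed (limma adjusted p = 0.0336). On day 1 the difference was 0.20 (95% interval -0.74 to 1.14). Left tPA minus right tPA was -1.02 on day 1 and 0.87 on day 4 (limma adjusted p = 0.505 and 0.717). Right tPA arrays read 154.8, 272.0 and 132.7 on day 1 and 75.8, 86.1 and 92.8 on day 4. On day 1 each of them lay above the sham arrays, by 1.22 (SE 0.46), which did not pass (limma adjusted p = 0.311, with 0.292% of probe sets passing).

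Right tPA day 4 replicate 1 thus carried F3 of the injured range (215.4) and Tfpi of the uninjured range (75.8). Left tPA day 4 replicate 1 (98.8) differed little in Tfpi from replicate 2 (114.3), which did not stand apart. Intact arteries had a lowest Tfpi value of 31.4, a median of 51.2 and a highest of 89.6. In the order of the 11 Tfpi log2 means, left gel day 4 (9.06) stood above right tPA day 1 (7.47), a step beyond the larger SD (0.55). The other steps lay within the larger SD, through left tPA day 4 (7.28), right gel day 4 (7.0002), left tPA day 1 (6.46), right tPA day 4 (6.40), right gel day 1 (6.38), sham day 1 (6.25), left gel day 1 (6.23), sham day 4 (5.71) and intact (5.66). Tfpi passed in 4 of 23 comparisons of 2 groups, each time with the injured left artery of day 4 higher.

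F2r did not pass in any of the 23 comparisons of 2 groups (lowest limma adjusted p = 0.377). On day 1 left gel arrays read 3645.0, 3871.2 and 3394.4 against 2963.1, 3220.4, 3577.6 and 2902.1 in sham. On day 4 they read 2692.0, 3804.4 and 2025.9, with sham arrays from 1679.1 to 3214.1 around a median of 2300.1. Injured and sham values overlapped on both days.

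The differences of left gel from sham were 0.20 on day 1 (95% interval -0.44 to 0.85) and 0.20 on day 4 (95% interval -0.40 to 0.80), with limma adjusted p = 0.871 and 0.719. Left tPA arrays read 3260.5, 2513.6 and 1747.3 on day 1, all below the left gel arrays, with a difference of -0.58 (95% interval -1.27 to 0.11; limma adjusted p = 0.453). On day 4 they read 2179.5, 2896.9 and 2858.2, and the difference was -0.07 (SE 0.34, limma adjusted p = 0.994). Left tPA minus sham was -0.38 and 0.14 (limma adjusted p = 0.497 and 0.863).

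The 11 group means of F2r spanned 0.66 log2 units, against 2.64 for F3 and 3.40 for Tfpi. They ran from left gel day 1 (11.83), sham day 1 (11.62) and right gel day 1 (11.50) through left gel day 4 and right tPA day 4 (both 11.42), right gel day 4 (11.37), left tPA day 4 (11.36), intact (11.30) and left tPA day 1 (11.25) to sham day 4 (11.22) and right tPA day 1 (11.17). Only the step from left gel day 1 to sham day 1 exceeded the larger SD of both groups. Intact arteries alone ran from 1713.8 to 5073.7, a spread wider than that of the group means. Right gel arrays read 3046.6, 2163.2 and 2835.0 on day 4. Right tPA arrays read 1789.5, 3763.0 and 1805.3 on day 1 and 3256.3, 1727.0 and 3647.3 on day 4. Left against right was 0.33 and 0.05 under gel and 0.08 and -0.06 under tPA on days 1 and 4, with limma adjusted p of 0.638 or more, although on day 1 all left gel arrays (3394.4 to 3871.2) lay above all right gel arrays (2693.6 to 3115.9).

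**Figure D3:**
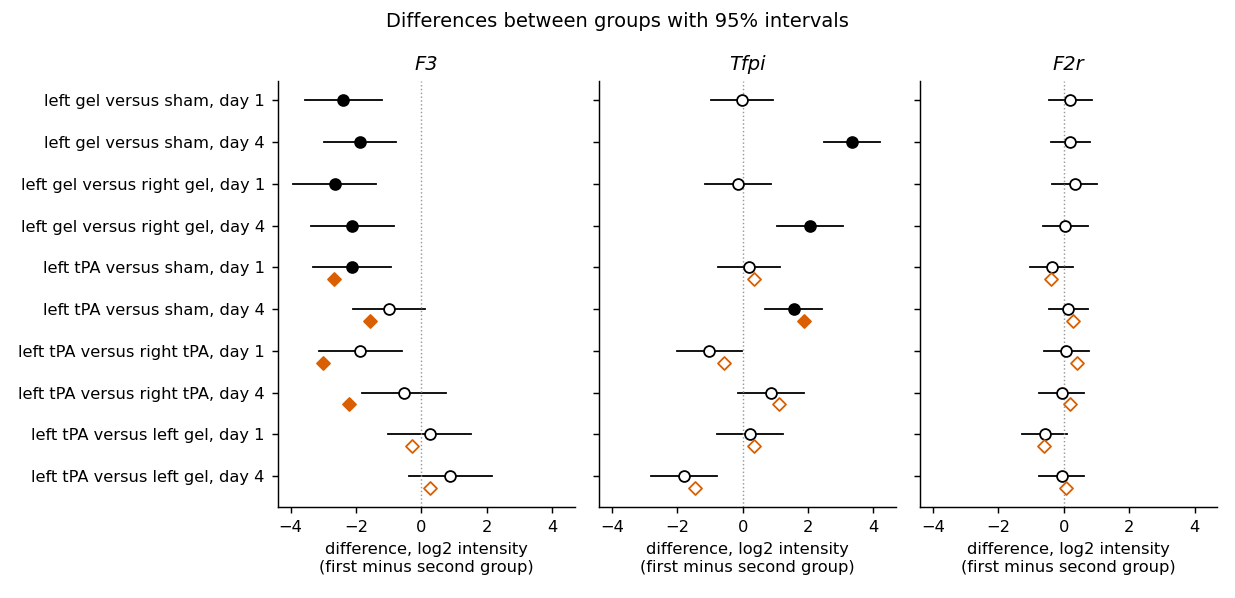
Differences in log2 intensity, first minus second group (horizontal axes), for F3, Tfpi and F2r in 10 comparisons. Circles are fits with all arrays with 95% intervals, diamonds are fits without the 4 tPA arrays that stood apart, and filled symbols have a limma adjusted p under 0.05. F3 lies below 0 in both left gel comparisons of each day (-2.64 to -1.86), the filled circles of Tfpi are all of day 4, and each F2r interval includes 0.

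Other genes of the pathway came from 4 lists, chosen with earlier results of these data known. Their counts stand beside 3.42% of all probe sets passing in left gel against sham on day 1 and 19.5% on day 4. Each gene is counted by its brightest probe set, and others that disagree are named. Of 17 clotting factors and fibrinogen chains 6 could be tested. In left gel against sham none passed on day 1 and F13a1, the cross-linking factor XIII subunit, fell on day 4 (-1.32, SE 0.37, limma adjusted p = 0.0093), and the list median of day 4 was 0.04 beside 0.03 over all genes. F2, which encodes prothrombin, was not called. Of 13 natural anticoagulants 9 were tested. On day 1, 1 fell and 8 did not pass, with a median of -0.07 beside -0.02 over all genes. On day 4, 2 rose, 3 fell and 4 did not pass, with a median of -0.31. Among the 4 was Gas6, a vitamin K-dependent protein, whose other probe set fell (-1.40, limma adjusted p = 0.0105).

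Pros1, protein S, a cofactor of activated protein C and of TFPI, rose on day 4 (1.27, SE 0.26, limma adjusted p = 0.000647). Serpine2, the thrombin-blocking serpin protease nexin-1, fell (-2.11, SE 0.43, limma adjusted p = 0.000599). The glypican Gpc3, a heparan sulfate proteoglycan, fell on both days (-3.05 and -3.47, limma adjusted p = 0.028 and 0.00106). The syndecan Sdc1, another heparan sulfate proteoglycan, rose on day 4 (1.36, limma adjusted p = 0.0166), its second probe set having 0.98 (limma adjusted p = 0.181). Anxa5, a phospholipid-binding annexin, fell on day 4 (-0.67, limma adjusted p = 0.0401), with 0.25 in its other probe set. In the brightest Anxa5 probe set the uninjured right arteries of day 4 lay as low against sham, at -0.81 under gel and -0.80 under tPA. Left minus right gel was 0.14 there, so the difference from sham was not confined to the injured artery. In left tPA arteries, Pros1 rose against sham on day 4 (0.93, limma adjusted p = 0.0299), while Anxa5 fell (-0.94, limma adjusted p = 0.0184). The other Anxa5 probe set gave 0.04 there and did not pass. Of the 9 tested, 1 rose, 1 fell and 7 did not pass, where 6.02% of all probe sets passed. Thbd, thrombomodulin, was not called on either day.

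In the list of thrombin receptors and coupling proteins 11 of 18 were tested. None passed on day 1. On day 4, 2 rose, 1 fell and 8 did not pass, with a median of -0.03 and 19.5% of all probe sets passing. Among the 8 was Gnai2, an inhibitory G protein subunit gene, at -0.19, whose other 2 probe sets fell (-1.41 and -1.25, limma adjusted p = 0.00493 and 0.0327). The probe set at -1.25 was also below sham in uninjured right arteries of day 4, at -1.54 under gel and -2.73 under tPA (limma adjusted p = 0.0162 and 0.00124). The one at -1.41 gave -0.24 and 0.22 there and did not pass. In left gel against sham on day 4, Arrb2, the receptor-silencing beta-arrestin 2, rose (1.13, SE 0.31, limma adjusted p = 0.00771), with 1.12 in its other probe set, which did not pass. So did the small GTPase gene Rhoa (1.13, SE 0.41, limma adjusted p = 0.0467). Rock1, a kinase downstream of RhoA, fell (-2.04, SE 0.59, limma adjusted p = 0.012). F2rl1, which encodes PAR2, the receptor that the tissue factor and factor VIIa complex can cut, was not called on either day.

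Among 8 tested of 15 transcription factors known to act on the tissue factor promoter, Fosl1, an AP-1 member, rose on day 1 (3.76, SE 0.99, limma adjusted p = 0.0269) and 7 did not pass. Among the 7 was Jun (-1.27), 1 of whose other probe sets fell on day 1 under gel (-1.52, limma adjusted p = 0.0395) and under tPA (-1.63, limma adjusted p = 0.0232), while another gave 0.74 and 0.57. On day 4 Egr1 (-0.79, limma adjusted p = 0.0361) and Fos (-0.94, limma adjusted p = 0.0225) fell and 6 did not pass, so 2 of 8 were called beside 19.5% of all probe sets. These are the brightest probe sets, and the others did not pass: Fos gave -0.34 in the other, and Egr1 -0.02, 0.10 and 0.11. Uninjured right gel arteries of day 4 were also below sham in the brightest probe sets, at -0.89 for Egr1 and -0.53 for Fos. Left minus right gel was 0.10 and -0.41, and Egr1 in right tPA arteries was at -0.80 against sham. The Egr1 fall was thus not confined to the injured artery. In left tPA arteries Egr1 fell against sham on day 4 (-0.995, limma adjusted p = 0.026), 1 of 8 tested, where 6.02% of all probe sets passed. Its other probe sets gave 0.34, -0.07 and -0.13 there, and none of them passed. The list medians were -0.21 on day 1 and -0.16 on day 4. In left tPA against left gel no tested gene of the 4 lists passed on day 1 or day 4.

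**Figure D4:**
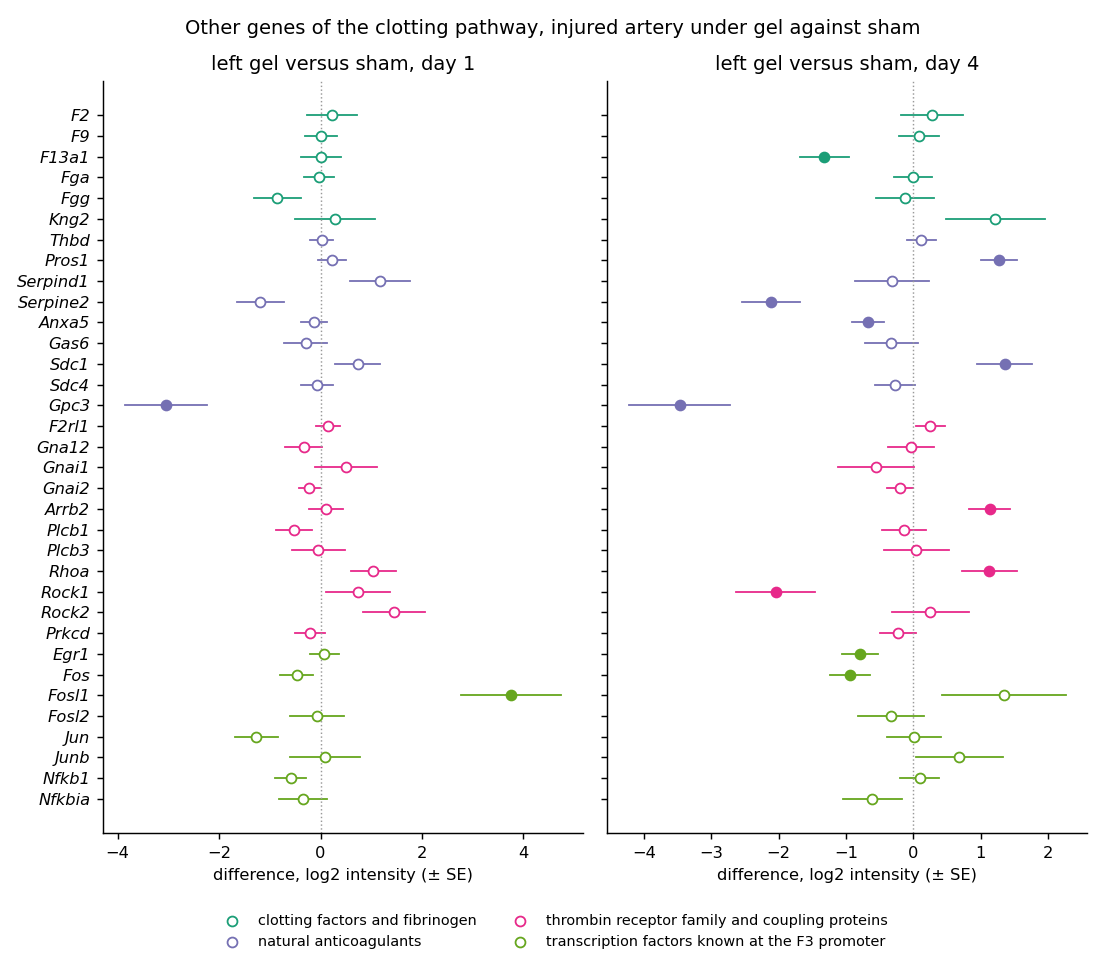
Differences in log2 intensity (horizontal axes, points ± SE) of 34 tested pathway genes, coloured by list, in left gel against sham arteries on day 1 and day 4. Filled points have a limma adjusted p under 0.05. On day 1 Gpc3 (-3.05) and Fosl1 (3.76) passed, and on day 4 Gpc3 (-3.47) and Serpine2 (-2.11) had the largest falls.

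Markers of other cells moved in the same arrays. Of 7 tested monocyte and macrophage markers 1 rose on day 1 and 5 on day 4 in left gel against sham, with medians of 0.96 and 1.89. In uninjured right arteries of day 4 the medians against sham were 1.51 under gel and 1.54 under tPA. Under gel 2 of 7 rose there, where 9.3% of all probe sets passed. In left against right gel of day 4, 1 rose (median 0.88), where 5.56% passed. Summed intensity over 8 monocyte and macrophage genes on day 4 spanned 13063 to 16732 with injury and 2774 to 4776 in sham arrays, and 13130 to 14966 against 6363 to 7447 on day 1. The other marker counts are of left gel against sham and stand beside 3.42% of all probe sets passing on day 1 and 19.5% on day 4, as do the first. Of the smooth muscle markers 0 of 6 passed on day 1 and 3 fell on day 4 (median -1.50, beside -0.99 in right gel against sham). Of 4 tested endothelial markers none passed on day 1, and Kdr rose on day 4 (2.48, limma adjusted p = 0.00243). Pf4, a platelet gene, rose on day 4 (2.03, limma adjusted p = 0.000599), 1 of 3 tested. Neutrophil markers S100a8 and Defa5 rose on day 1, 2 of 3 tested, and none passed on day 4. Skeletal muscle markers Myh4, Tnnc2 and Tnnt3 rose on day 1, 3 of 9 tested, and 0 on day 4. Adipocyte markers Cfd and Lpl (2 of 4), the fibroblast marker Pdgfra (1 of 5) and the nerve marker Gap43 (1 of 8) rose on day 4 and none of these lists passed on day 1. The day 4 medians of these lists were 2.60 for adipocyte, -0.49 for fibroblast and 1.60 for nerve markers, so the fibroblast median went the other way from Pdgfra. Left tPA arrays of day 4 had monocyte and macrophage sums of 4940 to 12672, below those of left gel, and 0 of the 7 genes passed between the 2 groups. Against sham, 5 of the 7 rose in left tPA arteries of day 4 (median 1.33), where 6.02% of all probe sets passed. The part of these cells in the F3 and Tfpi results was not tested.

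The genes whose group means followed these genes most closely were found by Pearson's r over the 11 group means, among 3535 other genes, each by its brightest probe set. They share the arrays, and no test was made. F3 was followed by Gsta1 (r = 0.97), Ndrg3 (0.95) and Septin4 (0.94). Tfpi was followed by Tnn (0.94), RT1-A3 (0.93) and P2rx4 (0.93). For F2r, whose means hardly moved, the highest were Zfp326 (0.89), Cox7b (0.85) and Myh1 (0.84).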

How the data were processed

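Biotin-labelled RNA was hybridised to Affymetrix rat arrays. The authors deposited linear intensity values, 1 for each probe set on an array. Which summary software made them is not given in the sources used here. Trimmed of 2% at either end, array means lay between 500.3 and 500.8, so the deposited values had been scaled. Control probe sets (59) and the 2913 with the lowest mean were left out. Values below 23.3, the 20th percentile, were raised to it before log2, which understates changes of dim genes. The 5827 others were fitted with limma 3.58.1 in R 4.3.3 (lmFit, eBayes) with 11 group means over all 40 arrays, and the fit was tested on simulated data. Alternatives were quantile and median scaling, other filters and floors, array weights, only the groups compared, a replicate block, each array left out, and 2 choices made after seeing the data. Symbols came from the platform annotation, updated through RefSeq gene IDs (7006 probe sets with 1 symbol, 308 with several, 1426 with none), and the brightest probe set represents a gene.

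The genes, lists and comparisons were chosen with earlier results of these data known. Named were F3, Tfpi, F2r, up to 4 members of each pathway list that passed in a comparison, and the 3 genes most like each. Anxa5, genes given as not called, and markers were named after their values were seen. In 1 of 23 comparisons of 2 groups, all same-numbered arrays deviated together (r above 0.1). Most of the 23 set different rats against each other, where numbers cannot pair. Between left and right, r ran from -0.296 to 0.339 (gel, day 1) and -0.126 to 0.165 (gel, day 4). Under tPA it ran from -0.278 to 0.201 on day 1 and -0.235 to 0.156 on day 4. With 3 pairs each of mixed sign, this check cannot decide whether left and right arrays shared rats. The 4 tPA arrays that stood apart carry the same numbers on both sides. The tests took arrays as unpaired. No label says that the pools of a group were prepared apart, so p-values measure the spread between these arrays, which may be technical.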

Additional observations from a re-analysis of the deposited data

Results flagged for a closer look

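The injury effect on Tfpi, left gel minus sham, differed between the days by a test of the difference itself. Day 4 minus day 1 was 3.37 (SE 0.63, limma adjusted p = 0.00181). With any 1 array left out it lay between 2.89 and 3.72, with adjusted p of at most 0.014. It was 2.52 with the floor at the 40th percentile.

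On the linear scale, F2r in intact replicate 3 (5073.7) lay far above the next array (2851.6), and Dixon's ratio of this gap to the range of the 6 arrays was 0.661, past its 95% critical value. On the log2 scale used for the tests no ratio passed in any of the 9 sets of values looked at for F3, Tfpi and F2r. A set was 1 gene in 1 group of 4 or 6 arrays, and chance passes about 1 in 20 sets.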

How the results depend on the processing

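Of 360 values of 36 results under alternatives other than leaving out 1 array, 327 kept direction and side of the threshold. The day 4 rise of Tfpi under gel against sham and its difference between days passed under each alternative that tested Tfpi, which the 50% filter removed. Array weights made F3 in left tPA against sham on day 4 pass (-1.46), as did leaving out the 4 arrays that stood apart (-1.58, chosen after seeing the data). Tfpi in left tPA against left gel on day 4 passed with the higher floor (-1.79) and array weights (-2.02). Calls were lost for F3 in left tPA against sham on day 1 with only the groups compared (-2.12) and the replicate block (-2.15), for Tfpi in left tPA against sham on day 4 likewise (1.56 in each), for F3 in left gel against sham on day 4 with the replicate block (-1.75), and on day 1 with replicates 1 and 3 averaged (-2.27, chosen after seeing the data). The replicate block also ended 2 other calls, F3 in left against right gel on day 1 and Tfpi in left gel between days, and changed no further call. With no filter, F3 in left against right gel missed the threshold on both days (adjusted p = 0.054 and 0.0588), and averaging replicates 1 and 3 ended it on day 1 (0.177). The cause was not tested in any of these.

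Signs turned only where no call was made. For Tfpi on day 1 left tPA against sham was -0.13 with quantile and -0.088 with median scaling, left tPA against left gel -0.0020 with quantile scaling and -0.14 with array weights, left against right gel 0.044, 0.077 and 0.49 with quantile scaling, median scaling and array weights, and left gel against sham 0.22 with the higher floor and 0.37 with array weights. For F2r on day 4, array weights and leaving out the 4 arrays gave 0.061 and 0.067 in left tPA against left gel, and 0.11 and 0.20 in left against right tPA. Without the 4 arrays F3 in left tPA against left gel on day 1 was -0.28.

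With 1 array left out at a time, 230 of 275 values kept direction and call. F3 ranged from -2.61 to -2.24 (day 1) and -2.08 to -1.67 (day 4) in left gel against sham, from -2.66 to -1.70 in left tPA against sham on day 1, from -0.28 to 0.69 in left tPA against left gel on day 1, and from -1.59 to 0.25 in left against right tPA on day 4. Tfpi ranged on day 1 from -0.37 to 0.46 (left gel against sham), -0.17 to 0.44 (left tPA against sham), -0.26 to 0.57 (left tPA against left gel) and -0.61 to 0.47 (left against right gel), and on day 4 from -2.33 to -1.46 (left tPA against left gel) and 1.02 to 1.89 (left tPA against sham). F2r ranged on day 4 from -0.032 to 0.42 (left gel against sham), -0.29 to 0.17 (left tPA against left gel), -0.18 to 0.27 (left against right gel) and -0.39 to 0.15 (left against right tPA), and on day 1 from -0.13 to 0.43 (left against right tPA). Groups of 3 pools limit all values, and sham values of Tfpi lie near the floor.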
